A study of Mus musculus with 9 samples.

Results

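The genes described here are 33 genes of histone acetylation among the 54532 genes listed for the mouse hippocampus: 10 acetyltransferases, 11 zinc-dependent deacetylases, 7 sirtuins, 2 bromodomain readers, a corepressor and 2 enzymes that make acetyl-CoA. They were chosen by gene name. All 33 had a single match in each deposited table and all passed the filter on low expression, so each was tested in every comparison. RNA came from 9 hippocampal samples, 3 in each of the Con, HMD and Bet+HMD groups, and the labels do not say that each is a separate mouse. Con mice were kept on standard chow, and HMD mice received chow rich in methionine over 8 weeks. Bet+HMD mice had that same methionine-rich diet for 8 weeks and were then given betaine at 2.5% (w/v) in drinking water for 2 weeks. No transgene or deletion was involved. The mice were bought at 6 to 8 weeks of age and housed as pairs in a cage, and cage membership is not given. The labels call them male C57BL/6 mice, whereas the methods of the study call its mice female. The strain field of the Bet+HMD samples counts upwards (C57BL/6, C57BL/7, C57BL/8), while the housing text of the same samples says C57BL/6. Whether high-methionine feeding went on during the betaine weeks is not clear, and age at dissection was therefore not known for each group.

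Acetyltransferases (writers) move the acetyl group of acetyl-CoA onto lysines of histone tails, where it loosens the hold of histones on DNA and is bound by bromodomain proteins (readers). Deacetylases (erasers) remove it. The zinc-dependent erasers fall into classes: class I enzymes are nuclear, class IIa enzymes shuttle in and out of the nucleus and act largely as scaffolds, class IIb enzymes are mostly cytoplasmic, and class IV has a single member. Sirtuins form the other family and consume NAD, which ties them to metabolism. In the hippocampus histone acetylation is known for its part in memory formation, and the methionine cycle, which a high-methionine diet loads and betaine feeds, supplies methyl groups to other histone marks. The study measured transcripts of Crebbp, Ep300, Hdac1, Hdac2 and Hdac3 by PCR alongside an acetyl mark of histone H3, and the same enzymes can be followed here in the sequencing data.

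The libraries held 16031464 to 18291952 reads assigned to genes in the table that covers all 3 groups, called the later table below. The earlier table held Con and HMD alone, at 16449388 to 18566712 reads. The tables differed in the reads assigned to the same libraries, such as 18516110 for HMD replicate 1 in the earlier and 17498798 in the later. The source of this difference was not tested. Each test therefore stayed inside a table: the earlier one served HMD against Con, and the later one both comparisons with Bet+HMD. Levels are FPKM, which divides the fragments of a gene by its exonic length and by library size, and values per library are from the later table unless stated. Bet+HMD libraries had a read on 25315 to 25663 genes, against 20816 to 23272 in the other libraries. They were also more alike: the median coefficient of variation of the 33 genes was 11.9% in Con, 8.36% in HMD and 4.73% in Bet+HMD, and over all genes averaging at least 1 FPKM it was 15.2%, 12.9% and 6.67%. No Bet+HMD library was in the earlier table, so betaine and any difference in when or how these libraries were made cannot be told apart in any comparison with Bet+HMD. Con replicate 3 had the lowest Crebbp and Hdac4 and the highest Sirt2, Sirt3 and Hdac11 of its group, together with the highest sum of 7 oligodendrocyte markers (1237 FPKM, against 741 and 925). All 8 neuronal markers and all 8 hippocampal markers were expressed above 1 FPKM on average in each group. The neuronal markers summed to 951 to 1106 FPKM in Con, 1001 to 1172 in HMD and 924 to 929 in Bet+HMD, below each of the other libraries. In Bet+HMD against HMD 4 of the 8 were called lower and 2 higher, beside 25.5% and 22.8% of all genes. The hippocampal markers summed to 220 to 238, 181 to 219 and 188 to 193 FPKM, with 2 of 8 called lower and 0 higher in that comparison, beside the same shares of all genes. Sums of the other marker lists were 289 to 297 FPKM in Con, 282 to 295 in HMD and 241 to 243 in Bet+HMD for astrocytes, 115 to 127, 96.9 to 116 and 87.2 to 90.8 for microglia, and 99.8 to 148, 149 to 233 and 72.2 to 122 for blood. They were 766 to 3182, 859 to 2557 and 925 to 1199 for choroid plexus, 2.28 to 3.14, 4.53 to 17.7 and 3.25 to 3.72 for thalamus, 13.9 to 23.4, 13.7 to 25.0 and 14.3 to 17.7 for striatum, and 9.33 to 10.9, 9.52 to 11.4 and 9.42 to 9.54 for oligodendrocyte precursors. No marker was at 0 in all libraries, and the part of tissue makeup in the results was not tested. In bulk tissue, fewer cells of a type and less RNA per cell cannot be told apart.

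Sequence is shown for 3 deacetylases whose promoters are compared below with their levels: Hdac7, the member with the largest difference between Bet+HMD and HMD, Hdac4, a relative of the same class that went the other way, and Hdac6, which was higher in every alternative. Each line gives the 250 bases before the RefSeq transcription start on GRCm38.p6, 5′ to 3′ on the minus strand, at chr15:97844503-97844752 for Hdac7, chr1:92180342-92180591 for Hdac4 and chrX:7947890-7948139 for Hdac6. None of these windows holds an annotated exon. RefSeq gives 4 windows for Hdac7, and the one nearest the start of the gene in the deposited table is printed. The Hdac4 window lies inside the gene as the deposited table bounds it, since longer transcripts begin upstream. Capitals mark GC boxes (GGGCGG) and CCAAT boxes (CCAAT) on either strand.
Hdac7: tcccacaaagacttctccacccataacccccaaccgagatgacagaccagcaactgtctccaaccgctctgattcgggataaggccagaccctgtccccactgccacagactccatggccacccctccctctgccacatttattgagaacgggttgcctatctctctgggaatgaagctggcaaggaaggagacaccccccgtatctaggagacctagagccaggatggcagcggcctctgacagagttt
Hdac4: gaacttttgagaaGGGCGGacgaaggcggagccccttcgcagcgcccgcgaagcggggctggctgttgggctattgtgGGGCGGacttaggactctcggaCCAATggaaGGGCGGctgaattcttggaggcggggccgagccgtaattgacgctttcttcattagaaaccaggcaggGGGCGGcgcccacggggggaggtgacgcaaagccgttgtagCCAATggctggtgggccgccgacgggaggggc
Hdac6: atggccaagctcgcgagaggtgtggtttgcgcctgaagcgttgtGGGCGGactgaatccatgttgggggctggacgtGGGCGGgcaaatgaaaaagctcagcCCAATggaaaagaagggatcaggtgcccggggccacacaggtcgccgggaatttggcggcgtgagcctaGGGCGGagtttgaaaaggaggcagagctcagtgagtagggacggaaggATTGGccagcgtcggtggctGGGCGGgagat
Hdac4 and Hdac6 each had 4 GC boxes and 2 CCAAT boxes in these windows. Hdac4 was called lower and Hdac6 higher in Bet+HMD than in HMD, and the part of these motifs in the differences was not tested. The Hdac7 window had no match to either motif, nor to a TATA box (TATAAA), a cyclic AMP response element (TGACGTCA), an E-box (CACGTG) or an ETS core (CCGGAAG). GC content was 56.4% for Hdac7, 65.2% for Hdac4 and 61.2% for Hdac6, against a median of 52.4% over the 32851 windows of all genes. Of the 29 members with a RefSeq window that was read, 18 had a GC box, 13 a CCAAT box, 7 an ETS core, 3 an E-box, 2 a TATA box and 0 a cyclic AMP response element. The shares over all windows were 32.7% for the GC box, 33.8% for the CCAAT box, 6.91% for the ETS core, 6.02% for the E-box, 12.4% for the TATA box and 1.55% for the response element. A match is a run of letters and not a bound site.

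Expression of the 33 genes spanned more than an order of magnitude. In Con, Brd2 was the most abundant, at 30.5 ± 3.43 FPKM (SD, n = 3), followed by Hdac11 (24.1 ± 6.05), Acly (23.7 ± 1.59) and Ncor1 (22.8 ± 0.254), and the ranges of neighbours in this order overlapped. Sirt5 was the least abundant, at 1.18 ± 0.216 FPKM, and Hdac10 (1.47 ± 0.254), Hdac8 (1.77 ± 0.506) and Hdac7 (1.90 ± 0.491) lay next above it with overlapping ranges. Sirt5 stayed last in all 3 groups. The order shifted most for Sirt4, which ranked 29 of 33 in Con, 28 in HMD and 13 in Bet+HMD, and for Hdac7, which ranked 30, 31 and 20. Reads behind a value ran from 63 (Sirt4 in a Con library) to 6749 (Ncor1 in a Bet+HMD library), so no member was near the floor of 3 reads. Of the 33 genes, 21 overlap another annotated gene and 12 do not.

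**Figure D1:**
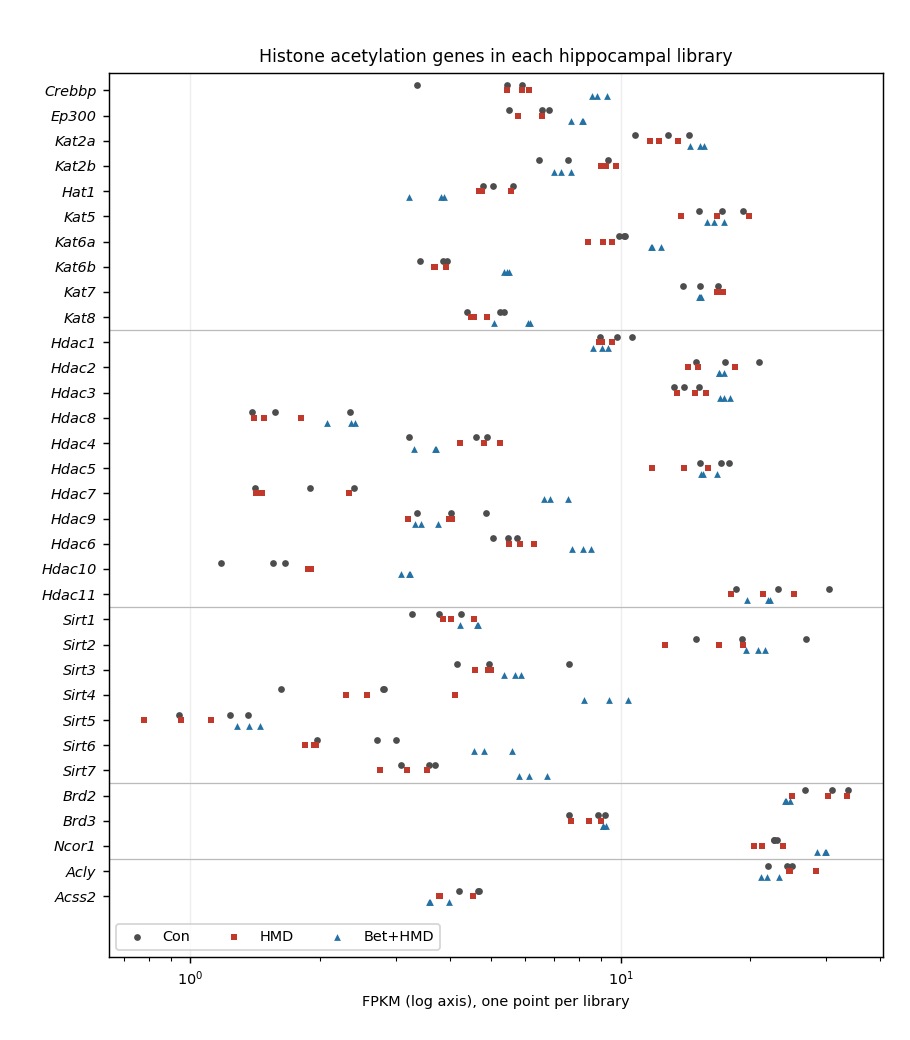
FPKM (log axis) of each of the 33 genes in each library of the later table, with circles for Con, squares for HMD and triangles for Bet+HMD (3 libraries each), and grey lines between acetyltransferases, zinc-dependent deacetylases, sirtuins, readers with the corepressor, and acetyl-CoA enzymes. The triangles of Hdac7, Sirt4, Sirt6 and Sirt7 stand clear to the right of the other symbols.

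High-methionine feeding alone moved none of these genes past the threshold. In HMD against Con, 0 of 33 members passed an adjusted p under 0.05 in limma, and 0 of the 12989 genes tested did (0% called). At an unadjusted p under 0.05 the count was 0 of 33, against 4.56% of all genes tested, and limma voom on reads recovered from the FPKM values also called 0 members. Sirt6 came closest, with an unadjusted p of 0.0873 in limma, and its adjusted p of 0.980 was shared by most other members. The median log2 difference of the 33 was -0.06, against -0.004 over all genes, and individual differences ran from -0.27 for Sirt6 and Sirt2 to 0.25 for Kat2b and Crebbp. The libraries of HMD and Con did not overlap for 3 members against 9.37% of all genes. Hdac10 and Kat7 were higher in HMD (4.71% of all genes) and Kat6a was lower (4.66% of all genes). In the later table the Kat7 libraries overlapped, at 13.9 to 16.8 FPKM in Con and 16.7 to 17.3 in HMD. The widest 95% interval was that of Sirt2, -0.79 to 0.25, and that of Hdac6 was among the narrowest, -0.13 to 0.33. No member's interval reached 1 on the log2 scale in either direction, and differences inside a member's interval could not be resolved with 3 samples a group.

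After betaine, the share of these genes that differed from HMD was near the share of all genes, and most of those called were higher. In Bet+HMD against HMD, 17 of 33 members passed the threshold, against 48.3% of the 13672 genes tested. Higher in Bet+HMD were 14 members (22.8% of all genes), and lower were 3 (25.5% of all genes). Past an absolute log2 difference of at least 1 as well were 3 members, Hdac7, Sirt4 and Sirt6, all higher, against 8.93% of all genes in either direction and 6.14% higher. The median log2 difference was 0.23 over the members and -0.03 over all genes tested. Libraries of Bet+HMD and HMD did not overlap for 25 members, against 60.1% of all genes, with 19 higher (28.3% of all genes) and 6 lower (31.8%). Leaving out Bet+HMD replicate 2 left 11 members called, the lowest count over the left-out libraries, and 35.3% of all genes. Rescaling to TPM moved the median of all genes by 0.19 on the log2 scale, and then 21 members were higher and 0 lower, with the members' median 0.28 above that of all genes instead of 0.26 above it. Of all genes, 47.3% were called under TPM, and 69.5% of these were higher, in place of 47.2%. The calls for Hat1, Hdac4 and Kat2b as lower were lost under TPM, where their differences stayed negative, and calls as higher were gained there for Kat8, Hdac5, Sirt1, Sirt2, Sirt3, Sirt5 and Brd3. Removing the trend on gene length added calls for Kat8 (higher) and Hdac9 (lower).

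Against Con the picture was similar in size, in a comparison that shares its Bet+HMD libraries with the one above. In Bet+HMD against Con, 14 of 33 members were called, against 39.7% of the 13643 genes tested. Higher in Bet+HMD were 12 (19.4% of all genes) and lower were 2 (20.4% of all genes). Members past the fold threshold were Hdac7 and Sirt4, both higher, against 8.74% of all genes in either direction and 5.77% higher. The median log2 difference was 0.12 over the members and -0.04 over all genes, and libraries did not overlap for 16 members, against 55.1% of all genes, with 13 higher (26.1% of all genes) and 3 lower (29%). Without Bet+HMD replicate 2, 8 members were called, and without Bet+HMD replicate 3 the count was also 8. The shares of all genes called in these fits are not given here. Against HMD, leaving out these replicates left 35.3% and 35.9% of all genes called, in place of 48.3%. TPM moved the median of all genes by 0.21 here and gave 16 higher and 0 lower members. Of all genes called under TPM, 73.5% were higher, in place of 48.8%. With the trend on gene length removed the split was 10 higher and 4 lower, 71.4% higher in place of 85.7%, beside 50.3% of all called genes. That removal added calls for Kat2a and Kat8 as higher and for Hdac4, Hdac9 and Acss2 as lower, and TPM added Kat2a, Kat8, Sirt1 and Brd3 as higher. Over both comparisons, 12 members were called higher in each, 1 (Hat1) was called lower in each, and 15 were called in neither. The share of all genes called in both is not given here, so these joint counts cannot be set against it.

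**Figure D2:**
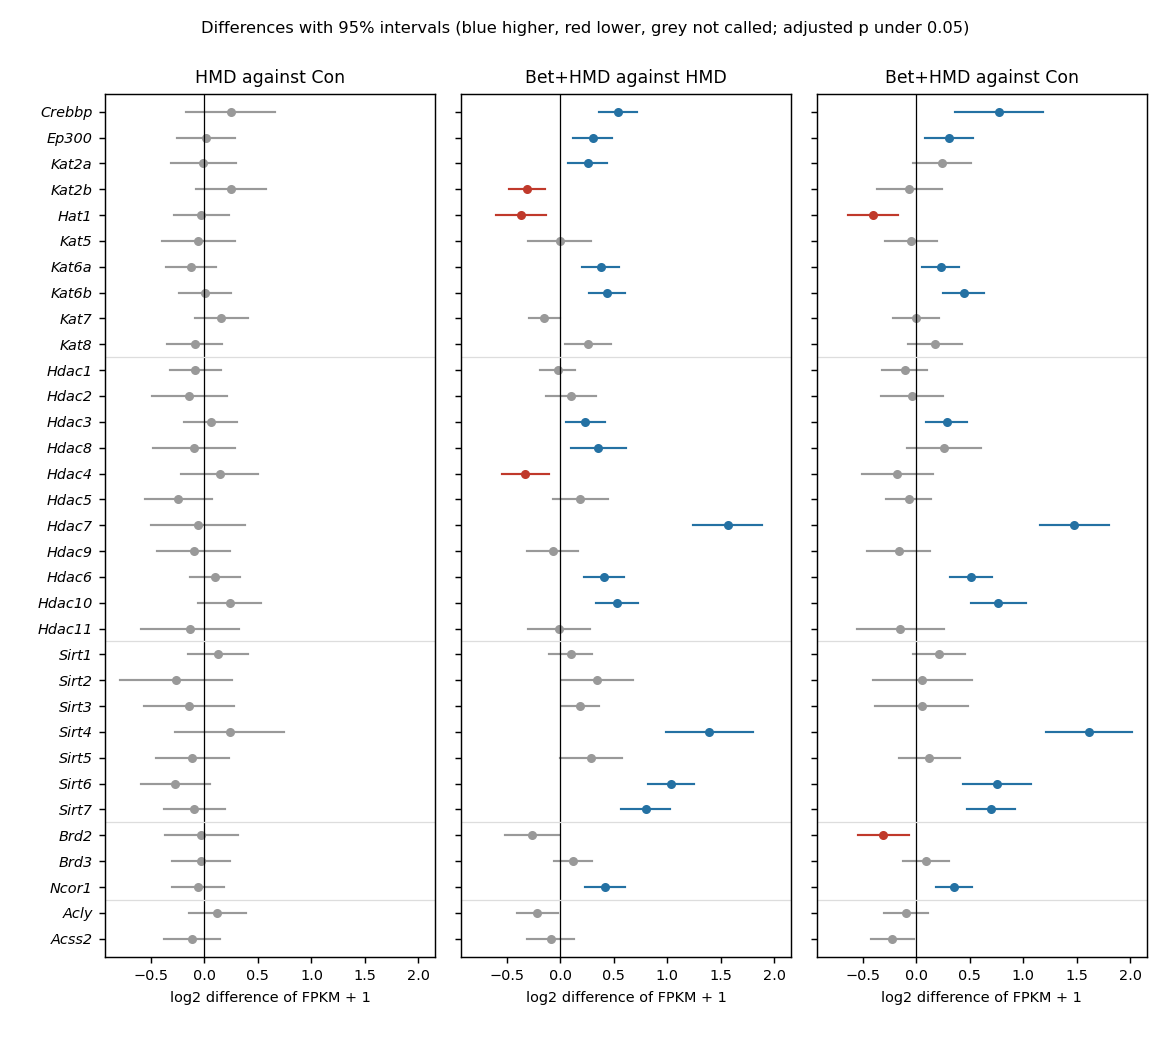
Log2 difference of FPKM + 1 for each gene in the 3 comparisons, with 95% intervals from limma, in blue where called higher, red where called lower and grey where not called. In the left panel (HMD against Con, earlier table) every interval includes 0, and in the other panels (later table) Hdac7 and Sirt4 lie farthest to the right.

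Of the 10 acetyltransferases, 5 were higher and 2 lower in Bet+HMD than in HMD, and 4 higher and 1 lower than in Con (over all genes 22.8% were higher and 25.5% lower than in HMD, and 19.4% and 20.4% than in Con). Crebbp (CBP) and Ep300 (p300), closely related coactivators that acetylate histone H3 at enhancers, both rose. Crebbp FPKM was 5.90, 5.44 and 3.37 in the Con libraries, 6.13, 5.90 and 5.44 in HMD, and 8.79, 8.59 and 9.29 in Bet+HMD. Each Bet+HMD library lay above all 6 others. The difference from HMD was 0.54 on the log2 scale (SE 0.0750, limma adjusted p = 0.00124) and that from Con was 0.77 (SE 0.173, limma adjusted p = 0.0128). Without Con replicate 3, the lowest library, the difference from Con was 0.57 with a limma adjusted p of 0.0027, and without Bet+HMD replicate 3 the limma adjusted p was 0.0506. Ep300 stood at 6.81, 6.55 and 5.50 FPKM in Con, 6.56, 6.57 and 5.77 in HMD, and 7.65, 8.19 and 8.14 in Bet+HMD. For Ep300 too each Bet+HMD library lay above all 6 others, while Con and HMD overlapped. Its differences were smaller: 0.30 from HMD (SE 0.0779, limma adjusted p = 0.0162) and 0.31 from Con (SE 0.0952, limma adjusted p = 0.0400). With the length trend removed they were 0.13 and 0.10, at limma adjusted p of 0.129 and 0.305, so that both calls for Ep300 were lost. HMD and Con differed by 0.25 for Crebbp and by 0.01 for Ep300, with intervals that included 0.

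Kat6a and Kat6b, also known as MOZ and MORF, are paralogs of the MYST family that work in the same kind of complex. Kat6a was at 10.2, 10.2 and 9.88 FPKM in Con, 9.12, 9.55 and 8.39 in HMD, and 11.8, 11.8 and 12.4 in Bet+HMD. It was lowest in HMD, without overlap with either other group, but its difference between HMD and Con was -0.13 with a 95% interval from -0.36 to 0.11. In Bet+HMD it was higher than in HMD by 0.38 (SE 0.0741, limma adjusted p = 0.00532) and than in Con by 0.23 (SE 0.0719, limma adjusted p = 0.0425). Kat6b was at 3.95, 3.86 and 3.41 FPKM in Con, 3.69, 3.92 and 3.67 in HMD, and 5.45, 5.51 and 5.35 in Bet+HMD. Con and HMD could not be told from each other for Kat6b (difference 0.004), and Bet+HMD was higher by 0.44 against each (limma adjusted p = 0.00243 and 0.00621). Removing the length trend cut the difference from Con to 0.12 for Kat6a and 0.19 for Kat6b, at limma adjusted p of 0.197 and 0.0784. Kat7 (HBO1), another MYST enzyme, was at 16.8, 15.3 and 13.9 FPKM in Con, 17.3, 17.3 and 16.7 in HMD, and 15.4, 15.2 and 15.3 in Bet+HMD. Its lowest HMD library lay above the Bet+HMD libraries, at a difference of -0.15 that was not called (limma adjusted p = 0.0814). Quantile normalization and TPM turned the sign of that difference.

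The GNAT enzymes Kat2a (GCN5) and Kat2b (PCAF), alternative catalytic subunits of the SAGA and ATAC complexes, went opposite ways. Kat2b was at 6.45, 9.36 and 7.54 FPKM in Con, 9.74, 9.24 and 9.01 in HMD, and 7.00, 7.26 and 7.67 in Bet+HMD. Bet+HMD lay below HMD in every library and inside the range of Con. The difference from HMD was -0.31 (SE 0.0716, limma adjusted p = 0.00985), and the call was lost under TPM, in the fit of all 3 groups and without Bet+HMD replicate 1. Kat2a, at 10.8 to 14.4 FPKM in Con and 11.7 to 13.6 in HMD, was 14.5 to 15.6 in Bet+HMD, a difference of 0.26 from HMD (limma adjusted p = 0.0312) and of 0.24 from Con that was not called (limma adjusted p = 0.133). The Kat2a call against HMD held in 1 of the 6 fits that leave out a library. Hat1, which acetylates newly made histones before they are built into chromatin, was the only member called lower in both comparisons. It was at 4.79 to 5.63 FPKM in Con, 4.69 to 5.56 in HMD and 3.21 to 3.88 in Bet+HMD, differences of -0.37 and -0.41 (limma adjusted p = 0.0187 and 0.0172). Those calls were lost under TPM, with the length trend removed and without Bet+HMD replicate 2. Kat5 (Tip60) was not called in any comparison. Kat8 (MOF) did not overlap between Bet+HMD (5.07 to 6.15 FPKM) and HMD (4.48 to 4.89) and lay on the threshold (difference 0.26, limma adjusted p = 0.0501). It was called higher against HMD in 5 of the 12 alternatives that keep all libraries, among them TPM (0.48, limma adjusted p = 0.00616) and removal of the length trend (0.39, limma adjusted p = 0.00733), and against Con in 2, these same ones (0.41 and 0.33, limma adjusted p = 0.0445 and 0.0299).

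Among the 11 zinc-dependent deacetylases, 5 were higher and 1 lower in Bet+HMD than in HMD, and 4 higher and 0 lower than in Con, beside the same shares over all genes: 22.8% higher and 25.5% lower than in HMD, and 19.4% and 20.4% than in Con. Hdac7, a class IIa enzyme best known from endothelium and thymocytes, had the largest difference of all members from HMD. Its FPKM was 2.40, 1.42 and 1.90 in Con, 1.47, 1.42 and 2.33 in HMD, and 7.56, 6.86 and 6.62 in Bet+HMD. The lowest Bet+HMD library was well above the highest of the other 6, and the ratio of means was 4.03 against HMD and 3.69 against Con. Reads behind these values numbered 147 to 293 per library in Con and HMD and 779 to 887 in Bet+HMD. On the log2 scale the differences were 1.56 (SE 0.138, limma adjusted p = 0.000209) and 1.48 (SE 0.136, limma adjusted p = 0.000531), with 95% intervals of 1.24 to 1.89 and 1.15 to 1.80. Over all alternatives they ran from 1.45 to 2.07 and from 1.35 to 1.97, and Hdac7 was called in each alternative that tested it. The 4 endothelial markers Cldn5, Pecam1, Flt1 and Kdr summed to 29.6 to 34.9 FPKM in Con, 24.7 to 28.5 in HMD and 23.2 to 24.4 in Bet+HMD. Against HMD, Cldn5, the most abundant, was called lower (-0.45), Pecam1 differed by -0.04, Flt1 by 0.23 and Kdr by 0.25. The median was 0.09 with 0 called higher, beside 22.8% of all genes. The part of endothelial content in the Hdac7 level was not tested. The gene lies on the minus strand at chr15:97792664-97844502 in 27 exonic blocks and shares its locus with Slc48a1 on the opposite strand, and whether the counting used strand is not stated.

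The other class IIa enzymes, which bind MEF2 transcription factors and are carried out of the nucleus by neuronal activity, did not follow Hdac7. Hdac4 was 3.21 to 4.88 FPKM in Con, 4.22 to 5.23 in HMD and 3.31 to 3.73 in Bet+HMD, a difference of -0.33 from HMD (limma adjusted p = 0.0250) and of -0.18 from Con that was not called (limma adjusted p = 0.347). The call against HMD was lost in 4 of the 6 fits that leave out a library. Hdac5 was at 17.9, 15.2 and 17.1 FPKM in Con, 14.0, 11.8 and 15.9 in HMD, and 15.5, 16.7 and 15.3 in Bet+HMD. The Con and HMD ranges of Hdac5 overlapped, its difference of -0.24 had a 95% interval from -0.55 to 0.07, and neither comparison with Bet+HMD called it. Hdac9 was between 3.20 and 4.87 FPKM throughout and was not called. With the length trend removed, Hdac9 was called lower against HMD (-0.24, limma adjusted p = 0.0436) and against Con (-0.38, limma adjusted p = 0.0192), and Hdac4 was called lower against Con (-0.41, limma adjusted p = 0.0197). Under TPM the differences of Hdac9 were 0.10 and 0.01, and that of Hdac4 from Con was 0.0005, none of them called. TPM called Hdac5 higher against HMD (0.39). Since all 4 enzymes come from the same libraries, the share of Hdac7 in their summed FPKM does not depend on library scaling: it was 5.36% to 9.07% over the 6 Con and HMD libraries and 22.4% to 25.3% in Bet+HMD.

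Both class IIb enzymes rose. Hdac6, a cytoplasmic deacetylase of tubulin, was at 5.47, 5.06 and 5.73 FPKM in Con, 5.51, 6.29 and 5.83 in HMD, and 7.69, 8.17 and 8.54 in Bet+HMD. Bet+HMD lay above every other library, by 0.41 against HMD (SE 0.0789, limma adjusted p = 0.00485) and 0.51 against Con (SE 0.0824, limma adjusted p = 0.00374). Hdac10, a deacetylase of polyamines, was at 1.18, 1.66 and 1.56 FPKM in Con, 1.87, 1.89 and 1.91 in HMD, and 3.08, 3.21 and 3.23 in Bet+HMD. Its groups formed 3 steps without overlap, on 72 to 110 reads per library in Con and HMD and 181 to 192 in Bet+HMD. The step from Con to HMD was 0.23 (SE 0.127, limma unadjusted p = 0.104, limma adjusted p = 0.980) and was not called, whereas Bet+HMD exceeded HMD by 0.53 (SE 0.0825, limma adjusted p = 0.00199) and Con by 0.77 (SE 0.108, limma adjusted p = 0.00229).

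Of the 4 class I enzymes, Hdac3 and Hdac8 were called higher in Bet+HMD than in HMD and Hdac3 also against Con, whereas Hdac1 and Hdac2, the catalytic cores of the Sin3, NuRD and CoREST complexes, were called in no comparison. Hdac1 was at 8.96, 9.80 and 10.6 FPKM in Con, 8.90, 9.55 and 9.02 in HMD, and 9.34, 8.60 and 9.04 in Bet+HMD, and the groups overlapped in every comparison. Hdac2, the class I enzyme most often linked to memory, was at 17.4, 15.0 and 20.9 FPKM in Con, 14.3, 15.1 and 18.5 in HMD, and 16.9, 17.3 and 16.9 in Bet+HMD, again with overlap. Their 95% intervals for HMD against Con were -0.33 to 0.16 for Hdac1 and -0.49 to 0.21 for Hdac2. Hdac3, the enzyme of the NCoR complex, was at 13.3, 14.0 and 15.2 FPKM in Con, 13.5, 15.8 and 14.9 in HMD, and 17.0, 17.9 and 17.3 in Bet+HMD. HMD and Con overlapped for Hdac3 at a difference of 0.06 (95% interval -0.19 to 0.31), and Bet+HMD was above both, by 0.23 (SE 0.0773, limma adjusted p = 0.0418) and 0.28 (SE 0.0820, limma adjusted p = 0.0321). These calls for Hdac3 were near the threshold and held in 1 of 6 and 2 of 6 fits that leave out a library. Hdac8, at 1.39 to 2.34 FPKM in Con and 1.40 to 1.81 in HMD, was 2.08 to 2.41 in Bet+HMD and was called against HMD alone (0.36, limma adjusted p = 0.0311), a call kept in 1 of 6 such fits. Hdac11, the class IV enzyme, was not called and ranged from 18.1 to 30.5 FPKM.

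The 7 sirtuins had positive differences between Bet+HMD and HMD, of which 3 passed the threshold, beside 22.8% of all genes called higher. The same 3 passed it against Con, with the same Bet+HMD libraries, beside 19.4% of all genes called higher. Sirt4, at chr5:115478010-115484725 on the minus strand, encodes a mitochondrial enzyme that restrains glutamine use. It was at 2.81, 1.62 and 2.80 FPKM in Con, 2.30, 4.11 and 2.57 in HMD, and 9.41, 10.4 and 8.22 in Bet+HMD. Each Bet+HMD library held 343 to 440 reads of it, against 63 to 151 in the others. Ratios of means were 3.12 against HMD and 3.87 against Con, and the log2 differences were 1.39 (SE 0.172, limma adjusted p = 0.000733) and 1.61 (SE 0.168, limma adjusted p = 0.000779). Alternatives gave 1.27 to 1.78 and 1.43 to 2.07. The other mitochondrial sirtuins were not called: Sirt3, the main mitochondrial deacetylase, was 4.83 ± 0.222 FPKM in HMD and 5.64 ± 0.258 in Bet+HMD (limma adjusted p = 0.0748), and Sirt5, which removes succinyl and malonyl groups, was 0.782 to 1.11 in HMD and 1.28 to 1.45 in Bet+HMD (limma adjusted p = 0.0963). Sirt4 made up 23.9% to 41.5% of the summed FPKM of these 3 genes over the Con and HMD libraries and 53.8% to 59.2% in Bet+HMD.

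Sirt6 and Sirt7, nuclear sirtuins that act on chromatin at telomeres and at ribosomal genes, also rose. They lie on minus strands at chr10:81621785-81627797 and chr11:120618372-120625240. Sirt6 was at 2.72, 1.97 and 3.00 FPKM in Con, 1.94, 1.85 and 1.96 in HMD, and 4.57, 5.58 and 4.81 in Bet+HMD. Its HMD libraries were the lowest as a group and lay just below the lowest Con library here, while in the earlier table they overlapped it, and the HMD against Con difference of -0.27 (SE 0.139) was not called. Bet+HMD exceeded HMD by 1.03 (SE 0.0932, limma adjusted p = 0.000227) and Con by 0.76 (SE 0.135, limma adjusted p = 0.0054), with a ratio of means of 1.94 for the latter. Sirt7 was at 3.71, 3.58 and 3.09 FPKM in Con, 2.76, 3.19 and 3.54 in HMD, and 6.73, 6.12 and 5.81 in Bet+HMD. The rise was 0.80 against HMD (SE 0.0987, limma adjusted p = 0.000751) and 0.70 against Con (SE 0.0945, limma adjusted p = 0.00196). Sirt7 overlaps Mafg on the same strand, so reads of that neighbour may be counted with it, whereas neither Sirt4 nor Sirt6 overlaps an annotated gene. Together Sirt6 and Sirt7 were 12.7% to 17.6% of the summed sirtuin FPKM in Con and HMD libraries and 21.0% to 21.6% in Bet+HMD.

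Sirt1 and Sirt2 were not called. Sirt1, the most studied nuclear sirtuin, was 3.27 to 4.26 FPKM in Con, 3.85 to 4.55 in HMD and 4.23 to 4.67 in Bet+HMD. Sirt2, a tubulin deacetylase abundant in myelin, was the most abundant sirtuin, at 15.0 to 26.9 FPKM in Con, 12.7 to 19.2 in HMD and 19.5 to 21.6 in Bet+HMD. Bet+HMD did not overlap HMD for Sirt2 (difference 0.34, limma adjusted p = 0.0814). The sum of the 7 oligodendrocyte markers was 741 to 1237 FPKM in Con, 846 to 1114 in HMD and 792 to 796 in Bet+HMD. Of the 7, 4 were called lower and 0 higher in Bet+HMD than in HMD, beside 25.5% and 22.8% of all genes. The part of oligodendrocyte content in Sirt2 and Hdac11 levels was not tested.

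**Figure D3:**
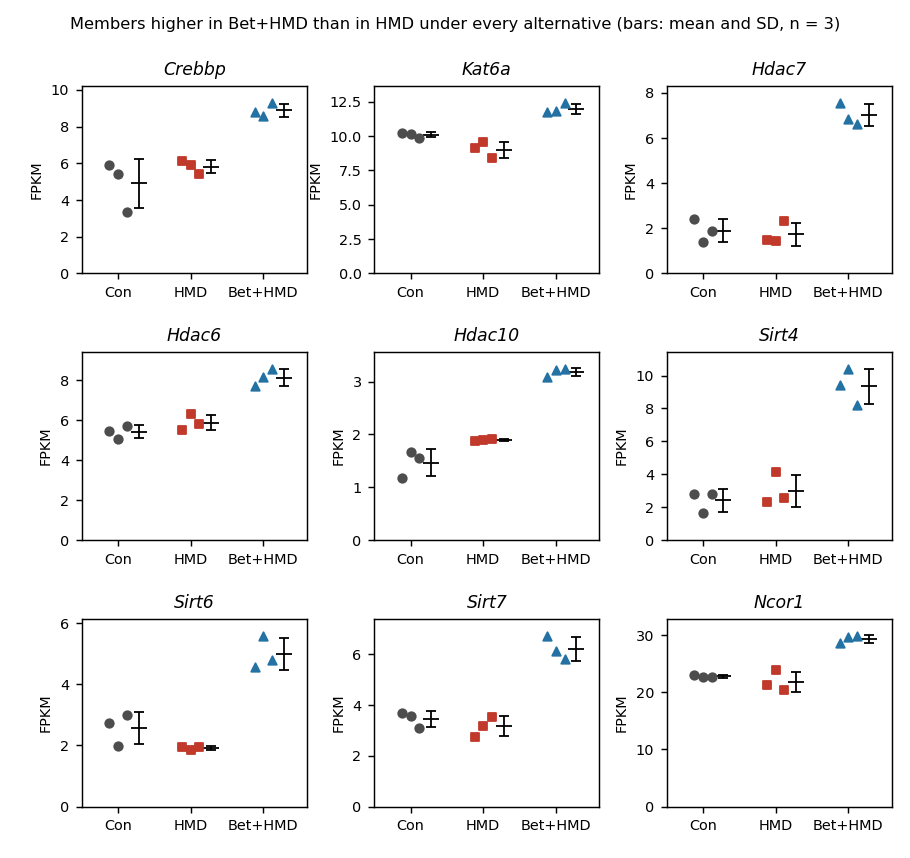
FPKM per library of the 9 members called higher in Bet+HMD than in HMD under every alternative, with each axis starting at 0, points for the 3 libraries of a group and bars for the mean and SD. In every panel the 3 Bet+HMD libraries lie above the 6 others.

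Ncor1, the corepressor that brings Hdac3 to chromatin and activates it, was at 23.1, 22.7 and 22.7 FPKM in Con, 21.3, 23.9 and 20.4 in HMD, and 28.6, 29.8 and 29.9 in Bet+HMD. Every Bet+HMD library was above all others, by 0.42 against HMD (SE 0.0779, limma adjusted p = 0.00433) and 0.35 against Con (SE 0.0718, limma adjusted p = 0.00879), and Ncor1 took the first rank of the 33 genes in Bet+HMD. With the length trend removed the difference from Con was 0.17 and was not called (limma adjusted p = 0.112). The BET readers Brd2 and Brd3 bind acetylated histones and recruit the transcription machinery. Brd2 was 26.8 to 33.6 FPKM in Con, 25.0 to 33.5 in HMD and 24.0 to 24.7 in Bet+HMD, and was called lower against Con alone (-0.31, limma adjusted p = 0.0465), a call kept in 1 of the 6 fits that leave out a library. Brd3 lay between 7.56 and 9.24 FPKM in every library and was not called. Acly and Acss2, which make nuclear and cytosolic acetyl-CoA from citrate and from acetate, were not called either, at 21.2 to 28.4 and 3.58 to 4.69 FPKM.

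**Figure D4:**
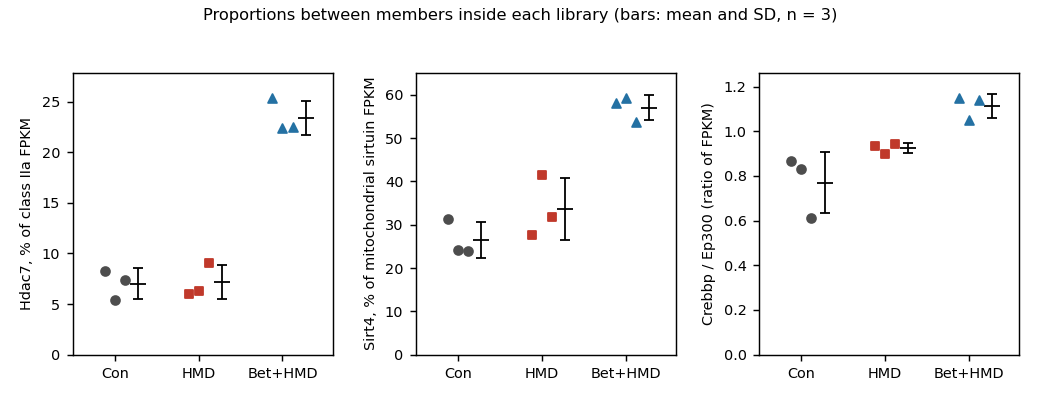
Proportions computed inside each library from FPKM: the percentage of Hdac7 in class IIa deacetylases, the percentage of Sirt4 in the mitochondrial sirtuins, and the ratio of Crebbp to Ep300, with points for libraries and bars for mean and SD (n = 3), on axes from 0. In all 3 panels the Bet+HMD libraries lie above the 6 others.

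Sums were taken over whole families as well. The summed FPKM of the 10 acetyltransferases was 85.8 to 93.7 in the Con and HMD libraries and 97.4 to 99.0 in Bet+HMD, and that of the 11 zinc-dependent deacetylases was 90.5 to 112.5 and 106 to 110.5. Their ratio was 0.772 to 1.03 in Con and HMD and 0.883 to 0.918 in Bet+HMD, inside that range. The summed sirtuins were 31.5 to 48.0 FPKM in Con and HMD and 50.1 to 54.3 in Bet+HMD. The ratio of Crebbp to Ep300 was 0.613 to 0.867 in Con, 0.899 to 0.942 in HMD and 1.05 to 1.15 in Bet+HMD, so the 3 groups did not overlap and the ratio exceeded 1 in Bet+HMD libraries alone.

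Of the 117 further genes of the same pathways (complex subunits, other writers and readers, and suppliers of acetyl-CoA and NAD), 113 were tested. In HMD against Con 0 of them were called, and 2 had an unadjusted p under 0.05 in limma, against 4.56% of all genes: Acss1, a mitochondrial acetyl-CoA synthetase (5.95 ± 0.209 against 7.90 ± 0.931 FPKM), and Msl1, the scaffold of the MSL complex (22.2 ± 2.45 against 27.3 ± 0.832), each with an adjusted p of 0.980. The differences of Nmnat2, Mbip and Kansl2 were 0.31, 0.29 and 0.14, and that of the NuRD remodeler Chd3 was -0.41, all at the same adjusted p. In Bet+HMD against HMD 39 were higher and 18 lower, so 50.4% were called, against 48.3% of all genes (22.8% higher and 25.5% lower), and the median difference was 0.10, against -0.03 over all genes. The counts of the shorter lists that follow stand beside these same shares over all genes. Readers of acetyl-lysine other than Brd2 and Brd3 had 13 of 21 tested members higher and 1 lower, with a median of 0.32, beside 22.8% higher and 25.5% lower over all genes. Brd9, a bromodomain subunit of a chromatin remodeler, rose from 8.90 ± 1.04 to 18.7 ± 0.742 FPKM (limma adjusted p = 0.000255). Subunits of SAGA and ATAC had 6 of 13 higher and 2 lower: Supt20, a structural SAGA subunit, rose from 3.76 ± 0.268 to 8.54 ± 0.619 FPKM (limma adjusted p = 0.000178) and Yeats2, a reader in ATAC, from 2.17 ± 0.0585 to 4.47 ± 0.127 (limma adjusted p = 0.000308), while Taf5l of SAGA fell from 5.41 ± 0.234 to 3.66 ± 0.175 (limma adjusted p = 0.00254).

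Suppliers of acetyl-CoA and NAD had 1 of 11 tested members higher and 4 lower than in HMD, with a median of -0.24, and the shares over all genes for this and the next lists are again 22.8% higher and 25.5% lower. Dld, a shared subunit of the pyruvate dehydrogenase complex, fell from 41.5 ± 1.32 in HMD to 26.9 ± 1.02 FPKM in Bet+HMD (limma adjusted p = 0.000447). Subunits of Sin3, NuRD and CoREST were split, 6 of 24 higher and 4 lower, and the histone-binding subunit Rbbp4 fell from 14.8 ± 1.33 to 9.34 ± 0.618 FPKM (limma adjusted p = 0.0014). The NCoR and MEF2 list had 3 of 7 higher and 0 lower, the NuA4 list 4 of 13 higher and 3 lower, the MSL and NSL list 3 of 10 in each direction, the list of MOZ, MORF and HBO1 subunits 2 of 7 higher and 0 lower, and the other acetyltransferases 1 of 7 in each direction. Against Con 31 of the 113 were higher and 14 lower, so 39.8% were called, against 39.7% of all genes (19.4% higher and 20.4% lower). Mbip, an ATAC subunit, had 16.4 ± 1.15 FPKM in Bet+HMD and 7.26 ± 1.30 in Con (limma adjusted p = 0.00118), Supt20 a difference of 0.95 (limma adjusted p = 0.000597) and the bromodomain gene Baz2b a difference of 0.74 (limma adjusted p = 0.00115). Among the genes lower than in Con, Ing2 of Sin3 differed by -0.62 (limma adjusted p = 0.00183), Taf5l by -0.57 (limma adjusted p = 0.0024) and Rbbp7, the paralog of Rbbp4, by -0.48 (limma adjusted p = 0.00403). Without Bet+HMD replicate 2 or replicate 3, 22 of the 113 were called against Con, and without replicate 1, 28. The shares of all genes called in these fits are not given here.

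Gene length went with the difference between Bet+HMD and HMD over the genome, while across the members its correlation with the difference was weak. Removing the length trend still moved single members, such as Ep300 from 0.30 to 0.13, Kat6b from 0.44 to 0.23 and Hat1 from -0.37 to -0.24. The count of called members stayed at 17, beside 47.4% of all genes. When all genes tested were cut into 6 bins of exonic length, the median log2 difference ran from -0.17 in the second bin (1663 to 2905 bases) to 0.09 in the longest (8019 to 41324 bases). The members are 2008 to 16826 bases long, with a median of 5331. Across the 33 members, length and difference had a Pearson r of -0.12 and a Spearman rho of -0.02, and the share of exonic bases found in no coding transcript had an r of -0.05. GC content of the longest transcript had an r of 0.38 and a rho of 0.30 with the difference. These are relations across genes measured in the same libraries, and genes are not independent replicates. The median of the members was 0.26, 0.23, 0.10, 0.24 and 0.30 in the second to the longest bin, and that of all genes was -0.17, -0.08, -0.05, 0.02 and 0.09. Sirt4 (2398 bases) and Sirt6 (2785 bases) lie in the second bin, where 14.6% of all genes were called higher.

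**Figure D5:**
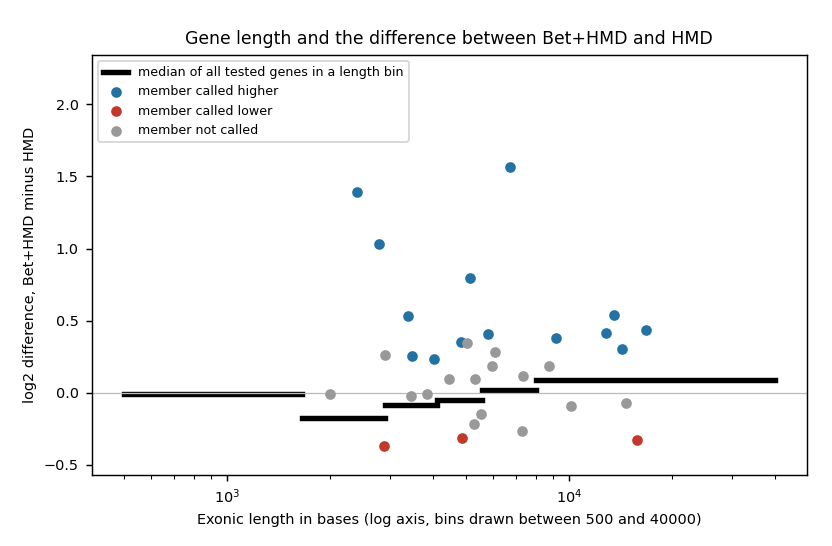
Log2 difference between Bet+HMD and HMD against exonic length in bases (log axis), with black bars for the median of all genes tested in each of 6 length bins and points for the 33 members, blue where called higher, red where called lower and grey where not called. The bars climb from the second bin to the longest, and the highest points are Hdac7, Sirt4 and Sirt6.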

How the data were processed

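Total RNA of mouse hippocampus was sequenced in 9 samples. Per the methods of the study, the authors depleted ribosomal RNA and made stranded paired-end libraries with a kit named for mRNA. Those methods describe Con and HMD mice and do not mention betaine, so they do not give the library protocol of the Bet+HMD samples. Per the submitters' processing notes, reads were aligned to mm10 with HISAT2 2.1.0 and counted with featureCounts 1.5.0-p3. The authors deposited FPKM per gene in 2 tables, with gene lengths in bases. The Con columns are headed COL, which was read as control. Reads recovered from FPKM, gene length and library size were whole, within 0.01 of a read, for 100% of values in each column, so depth is known. The study names a count tool, but FPKM values are not counts. Instead limma 3.58.1 in R 4.3.3 was run on log2(FPKM + 1) for each pair of groups, with an intensity trend, over genes averaging at least 1 FPKM. Differences are on that scale and understate changes of low genes. p-values are two-sided and Benjamini-Hochberg adjusted over all genes tested, and the threshold is 0.05, alone or with an absolute log2 difference of at least 1. SE is the moderated standard error and SD is over 3 samples. The labels do not say that each sample is a separate animal, so p-values measure only the spread between samples. The floor of 3 reads covers counting error only.

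The members, the wider list and the marker lists were chosen with earlier results of these data known. Values in every library are given for the 12 members with the smallest adjusted p over both comparisons with Bet+HMD, the 5 with the smallest p in HMD against Con and the 5 enzymes the study measured by PCR, 17 genes in all. From the wider list, up to 3 genes in each direction per comparison are named. Any other gene named was chosen after its values were seen. Coordinates are those of GRCm38. Promoter windows come from RefSeq and were matched by symbol for 29 members. The fit was tested on data simulated from these libraries. The alternatives were another pseudocount, other filters, other scalings, removal of the length trend, a replicate block, no intensity trend, all groups in one fit, limma voom on recovered reads, HMD against Con in the later table, and each sample left out in turn.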

Additional observations from a re-analysis of the deposited data

How the results depend on the processing

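In HMD against Con the count of called members stayed at 0 and the count for the wider list at 0 under every alternative, and the members' median stayed below 0 (-0.08 to -0.01 with a library left out). In Bet+HMD against HMD, 9 of the 17 called members were called in the same direction under every alternative in which they were tested (Crebbp, Kat6a, Hdac7, Hdac6, Hdac10, Sirt4, Sirt6, Sirt7 and Ncor1), and in Bet+HMD against Con 6 of 14 were (Hdac7, Hdac6, Hdac10, Sirt4, Sirt6 and Sirt7). A filter at 5 FPKM, under which 21 members are left to test, gave 9 called members against HMD (1 past the fold threshold, median 0.187) and 8 against Con (1 past it, median 0.0568). Over all genes that filter left 55.2% and 43.0% called. TPM gave 6 members past the fold threshold against Con (1730 of all 13643 genes tested) and medians of 0.439 and 0.366. Removing the length trend, with or without the block, gave a median of 0.193 against HMD. A pseudocount of 0.1 gave a median of 0.204 against Con, and voom on recovered reads 0.204. Leaving out a library gave 11 to 19 called members against HMD (median 0.197 to 0.249, 2 to 3 past the fold threshold) and 8 to 15 against Con (median 0.097 to 0.215), and 22 to 48 called genes of the wider list against Con. Over all genes 35.3% to 50.7% were then called against HMD, and the shares against Con are not given here.

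Replicate numbers were not used to pair samples in the main fits, and whether they mark pairs is not settled by the values below. Deviations from the group means of same-numbered samples correlated at -0.055, 0.346 and 0.319 for HMD and Con, at 0.017, -0.102 and -0.151 for Bet+HMD and HMD, and at -0.049, -0.090 and -0.176 for Bet+HMD and Con. In HMD against Con the replicate block called 0 members. It gave 2 members and 1034 of 12989 genes a limma unadjusted p under 0.05, in place of 0 members and 592 genes. In the comparisons of Bet+HMD the block left 12 members called against HMD and 9 against Con, 9 with the length trend removed as well. Over all genes the block left 41.1% called against HMD, and its shares against Con are not given here. For the wider list it left 27 genes called against Con, 28 with the length trend removed as well.

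Signs turned only for differences that were not called. For HMD against Con, removal of the length trend, with or without the block, gave -0.0267 for Ep300 and -0.0425 for Kat6b. Leaving out a library gave -0.0673 to 0.0688 for Ep300, -0.0475 to 0.0334 for Kat6b and -0.216 to 0.0596 for Hdac7. For Bet+HMD against HMD, Kat7 was 0.0401 under TPM and 0.00316 under quantile normalization. Hdac1 was 0.169 under TPM, 0.0227 under quantile normalization, 0.0676 with the length trend removed (the same with the block) and -0.0489 to 0.0047 with a library left out. For Bet+HMD against Con, TPM gave 0.142 for Kat2b, 0.216 for Kat7, 0.0988 for Hdac1, 0.173 for Hdac2 and 0.144 for Hdac5. Quantile normalization gave 0.152 for Kat7, 0.118 for Hdac2 and 0.0888 for Hdac5. Centring on the median ratio gave 0.0238 for Kat7, and removal of the length trend, with or without the block, 0.00389 for Hdac1 and 0.00095 for Hdac2. Leaving out a library gave -0.179 to 0.0579 for Kat2b, -0.0664 to 0.0619 for Kat7 and -0.154 to 0.0735 for Hdac2. The cause was not tested.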
